A study of Homo sapiens with 6 samples.

Results

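The integrated stress response was examined through 10 genes, ATF4, DDIT3, TRIB3, ASNS, CHAC1, SESN2, DDIT4, PPP1R15A, PSAT1 and VLDLR, which are ATF4 itself and genes of the branch it shares with CHOP, the product of DDIT3. They were chosen by name, with earlier results of these data known, and all 10 were found by Ensembl ID among the 38900 genes of the table and passed the filter on low values. The cells were hTERT RPE1, an established human retinal pigment epithelial line immortalised with telomerase. They were described as quiescent and held at 100% confluency for 5 days in both groups. Cells of 3 samples then received 100 nM combretastatin A4 (CA4), a small molecule that binds tubulin and takes microtubules apart, and those of the other 3 received 0.1% DMSO as the baseline, in each case for 6 hours in fresh medium. The labels do not say whether the 3 replicates of a group were separate cultures on separate days, so p-values measure the spread between these libraries, which may be technical.

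In the integrated stress response, kinases that sense misfolded protein, missing amino acids, missing heme or viral RNA phosphorylate the translation factor eIF2. Most protein synthesis then slows, while the ATF4 messenger is translated more, and the ATF4 protein switches on genes for amino acid supply, for feedback on the pathway and, through CHOP, for cell death under lasting stress. ATF4 is therefore controlled largely after transcription, and the RNA measured here reports on the targets more directly than on the ATF4 protein.

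ATF4 binds together with C/EBP proteins to composite sites whose core is TGATGNAA. The window from 250 bases before to 50 bases after each start site (RefSeq, GRCh38.p14) was searched for that core on both strands. All 10 genes had a window, and 2 of them, ASNS and CHAC1, held the core, against 2.84% of the 10369 tested genes with a window. A full cyclic AMP response element, TGACGTCA, which reads the same on both strands and which ATF and CREB proteins bind, was searched after the sequences had been read. It lay in the window of PPP1R15A and in 3.82% of those 10369 genes. The 250 bases before the start are shown for these 3 genes, with the matches in capitals, and for TRIB3 and DDIT4, the other genes that passed the expression test, whose windows held neither motif.
ASNS, chr7:97872409-97872658, - strand: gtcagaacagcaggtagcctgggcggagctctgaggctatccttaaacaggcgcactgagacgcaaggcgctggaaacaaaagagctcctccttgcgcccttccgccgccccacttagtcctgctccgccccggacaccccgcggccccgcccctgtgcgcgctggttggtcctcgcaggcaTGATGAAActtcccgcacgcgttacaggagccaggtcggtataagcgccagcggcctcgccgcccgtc
CHAC1, chr15:40953221-40953470, + strand: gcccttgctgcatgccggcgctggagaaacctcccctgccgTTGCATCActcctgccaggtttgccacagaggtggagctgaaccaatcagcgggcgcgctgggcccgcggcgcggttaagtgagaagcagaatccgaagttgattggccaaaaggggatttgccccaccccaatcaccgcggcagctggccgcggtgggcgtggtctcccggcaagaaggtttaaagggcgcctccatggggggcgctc
PPP1R15A, chr19:48872171-48872420, + strand: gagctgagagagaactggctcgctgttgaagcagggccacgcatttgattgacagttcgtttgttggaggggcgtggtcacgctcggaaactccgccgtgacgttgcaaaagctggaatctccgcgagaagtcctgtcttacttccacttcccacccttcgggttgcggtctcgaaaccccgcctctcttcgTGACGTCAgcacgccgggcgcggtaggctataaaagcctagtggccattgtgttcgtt
TRIB3, chr20:381045-381294, + strand: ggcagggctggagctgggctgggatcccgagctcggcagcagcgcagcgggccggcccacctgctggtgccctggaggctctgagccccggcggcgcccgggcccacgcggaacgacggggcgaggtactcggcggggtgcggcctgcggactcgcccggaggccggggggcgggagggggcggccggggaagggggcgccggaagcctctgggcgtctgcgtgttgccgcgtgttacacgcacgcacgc
DDIT4, chr10:72273674-72273923, + strand: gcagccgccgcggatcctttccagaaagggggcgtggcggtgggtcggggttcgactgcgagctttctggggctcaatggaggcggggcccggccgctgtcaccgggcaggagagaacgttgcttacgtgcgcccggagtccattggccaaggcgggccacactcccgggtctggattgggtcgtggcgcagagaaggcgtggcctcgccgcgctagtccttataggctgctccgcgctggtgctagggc
The match in ASNS begins 68 bases before the start and is the core of the element known in that promoter as the nutrient-sensing response element. The match in CHAC1 begins 209 bases before the start and is on the other strand, and that in PPP1R15A begins 58 bases before it. A match describes the letters only and is no evidence of binding in these cells.

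After 6 hours of CA4, 9 of the 10 genes had positive log2 differences and DDIT4 a negative one, where 48.9% of all tested genes had positive ones. With every library scaled to 1 total, 8 of the 10 were positive. Differences between the 10 genes were not tested. TRIB3 and PPP1R15A rose, by 2.86-fold and 1.54-fold, and DDIT4 fell to 0.259 of its DMSO level. The amino acid genes ASNS and PSAT1 had larger fold changes than PPP1R15A, at 3.29-fold and 3.87-fold, with all 3 CA4 libraries above all 3 DMSO libraries, but their spread between libraries was wide and neither passed the test. ATF4, DDIT3, CHAC1 and VLDLR had overlapping groups. Values were tested with limma on log2(normalized count + 1), 1 fit over 13928 genes with p-values adjusted over all of them by the Benjamini-Hochberg method and a threshold of 0.05. By that test 3 of the 10 genes were called, where 4.94% of all tested genes were: 2 were higher, against 2.97%, and 1 was lower, against 1.97%. Groups that did not overlap were seen in 6 genes, against 27.7% of all tested genes, with CA4 above in 5 (against 14.3%) and below in 1 (against 13.4%). The median log2 difference of the 10 was 0.64, or 0.63 without CHAC1, and that of all tested genes was -0.0082.

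**Figure D1:**
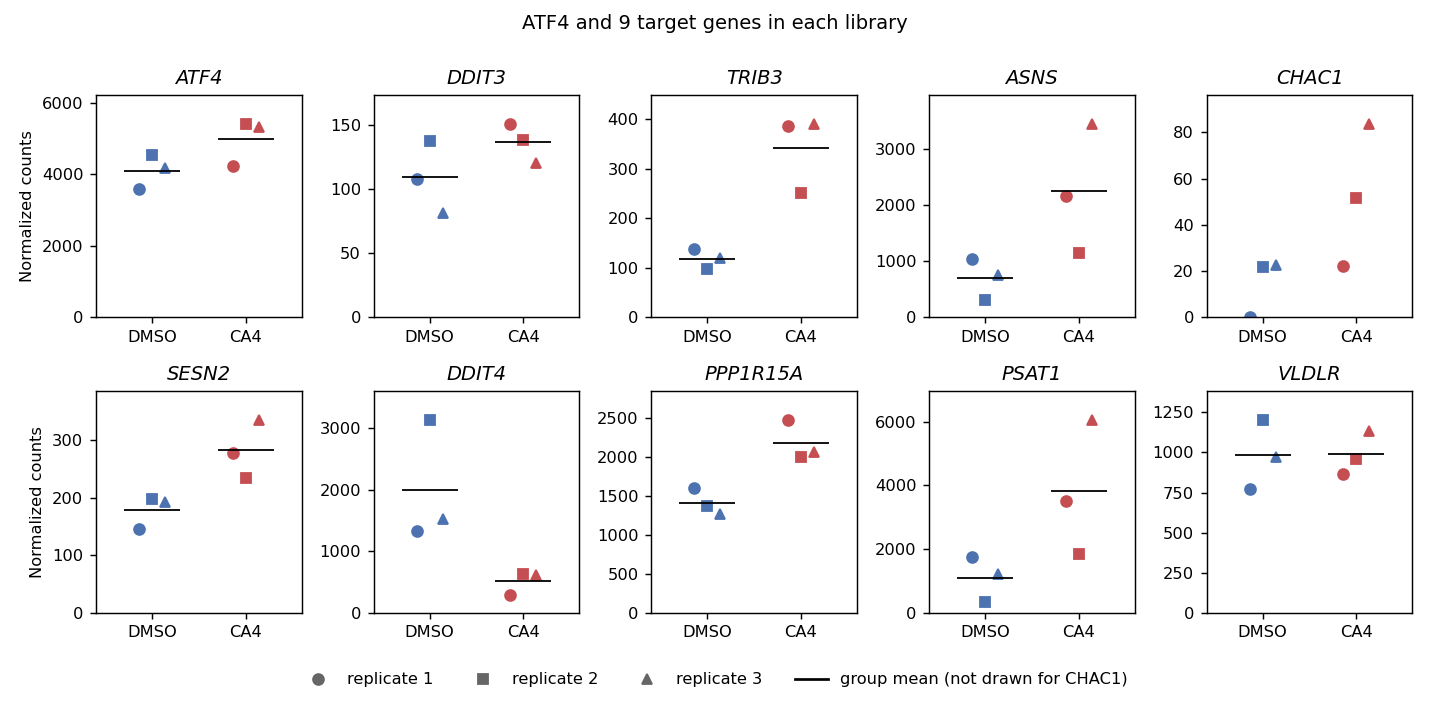
Normalized counts (linear vertical axes from 0) of ATF4 and 9 target genes in the 3 DMSO and 3 CA4 libraries; the shape of a point gives the replicate number and the line the group mean. TRIB3, ASNS, SESN2, PPP1R15A and PSAT1 have all CA4 points above all DMSO points, and DDIT4 has them all below.

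Among the transcription factors, ATF4 (chr22:39519695-39522685, + strand, GRCh38 in GENCODE 29) stood at 3584, 4535 and 4162 normalized counts in DMSO (replicates 1, 2 and 3, the order kept below) against 4233, 5400 and 5308 in CA4. The lowest CA4 library lay between the DMSO libraries. The log2 difference was 0.28 (limma adjusted p = 0.241, SE 0.13), with a 95% interval from -0.015 to 0.58. Of the 50-base words in its transcripts, 17.9% also occur in other genes, most of them in the pseudogene ATF4P3, so some of its reads could have been assigned elsewhere. DDIT3 (chr12:57516588-57521737, - strand), which encodes CHOP, had 108, 137 and 81.7 in DMSO against 151, 138 and 120 in CA4. The groups overlapped, and the log2 difference was 0.35 (limma adjusted p = 0.414, SE 0.23, 95% interval -0.18 to 0.87). Its log2 difference was 0.15 without DMSO replicate 3 and 0.53 without DMSO replicate 2. On the opposite strand MARS1, the methionyl-tRNA synthetase gene, covers 27.2% of the exon bases of DDIT3 and had 2778 to 5166 normalized counts, and no source used here states whether reads were counted by strand, so the small count of DDIT3 could hold reads of its neighbour.

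TRIB3 and PPP1R15A act back on the pathway. TRIB3 (chr20:362835-397559, + strand) encodes a pseudokinase that CHOP and ATF4 induce and that binds ATF4. It had 138, 97.2 and 119 normalized counts in DMSO against 386, 251 and 390 in CA4. Every CA4 library was above every DMSO library, and CA4 replicate 2 was the lowest of its group, as DMSO replicate 2 was of its own. TRIB3 rose by log2 1.51 (limma adjusted p = 0.0158, SE 0.22). The adjusted p was 0.0168 and 0.0188 without DMSO replicate 1 and without CA4 replicate 2, and 0.0603 to 0.0702 without DMSO replicate 2, DMSO replicate 3, CA4 replicate 1 or CA4 replicate 3.

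PPP1R15A (chr19:48872392-48876057, + strand) encodes GADD34, which brings protein phosphatase 1 to eIF2 and so ends the response. It had 1599, 1370 and 1272 normalized counts in DMSO against 2483, 1997 and 2066 in CA4, again with no overlap. It rose by log2 0.63 (limma adjusted p = 0.034, SE 0.12). Under scaling of every library to 1 total, the log2 difference was 0.52 and the adjusted p 0.0596, and in the fits without 1 library the call held only without DMSO replicate 1 (adjusted p = 0.0222), with 0.0505 to 0.127 without any 1 of the others. Its paralog PPP1R15B, the constitutive partner of the same phosphatase, is given here although the naming rule did not select it, and had a log2 difference of 0.29 (limma adjusted p = 0.197, SE 0.12).

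The amino acid genes ASNS and PSAT1 had a wide spread between libraries. ASNS (chr7:97852118-97872542, - strand), asparagine synthetase, had 1043, 304 and 744 normalized counts in DMSO against 2155, 1135 and 3443 in CA4. PSAT1 (chr9:78297143-78330093, + strand), the phosphoserine aminotransferase of serine synthesis, had 1743, 323 and 1202 in DMSO against 3519, 1849 and 6059 in CA4. In both genes replicate 2 was the lowest library of its group, and the lowest CA4 library was barely above the highest DMSO library. The log2 difference of ASNS was 1.72 (limma adjusted p = 0.101, SE 0.52) and that of PSAT1 was 1.95 (limma adjusted p = 0.128, SE 0.65). The standard deviation of log2 values within groups was 0.86 for ASNS and 1.09 for PSAT1, above that of 95.7% and 97.4% of tested genes, whose median was 0.199. Without DMSO replicate 2 the log2 differences were 1.21 and 1.23. In GENCODE 29, 44.6% of the exon bases of ASNS also belong to AC079781.5 on the same strand, which is not among the genes with values. CHAC1 (chr15:40952962-40956519, + strand), which degrades glutathione, was listed at 0 in DMSO replicate 1, at 21.5 and 22.8 in DMSO replicates 2 and 3 and at 22.2, 51.6 and 83.6 in CA4. A listed 0 can be a failed estimate. In all, 59 genes were at 0 in exactly 1 library while each of the 5 remaining libraries had 10 reads or more. Among them was PRPF8, a core splicing factor that all cells use, with 11.6, 0 and 38.9 normalized counts in DMSO and 16.4, 21.3 and 11.1 in CA4. Its values were low in all 6 libraries, so it is no case of a high gene lost in 1 library. Whether the 0 of CHAC1 is a failed estimate was not tested, and no mean or fold is given for that gene. The limma adjusted p of CHAC1 was 0.266. Without DMSO replicate 1 the fitted log2 difference was 1.02 and the limma adjusted p 0.303.

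SESN2 and DDIT4, both inhibitors of the growth kinase complex mTORC1, had differences of opposite sign. SESN2 (chr1:28259527-28282491, + strand) encodes a leucine sensor. It had 145, 198 and 193 normalized counts in DMSO against 277, 233 and 335 in CA4, so the groups did not overlap. The log2 difference was 0.65 (SE 0.19) and missed the threshold (limma adjusted p = 0.0962). DDIT4 (chr10:72273920-72276036, + strand) encodes REDD1, which acts through the TSC complex and is also induced by hypoxia and glucocorticoids. It had 1321, 3136 and 1516 in DMSO against 281, 633 and 612 in CA4. Every CA4 library was below every DMSO library, and replicate 1 was the lowest of each group. DDIT4 fell by 1.95 in log2 (limma adjusted p = 0.0403, SE 0.40). The call held without DMSO replicate 1 (adjusted p = 0.0348) and was lost without any 1 of the other 5 libraries, with adjusted p-values from 0.0549 to 0.11. The antisense gene DDIT4-AS1, which is not among the genes with values, covers 41.2% of the exon bases of DDIT4.

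VLDLR (chr9:2621834-2660053, + strand), the very low density lipoprotein receptor, had 775, 1204 and 970 normalized counts in DMSO against 868, 960 and 1136 in CA4. The groups lay over each other. Its log2 difference was 0.022 (limma adjusted p = 0.959, SE 0.18), with a 95% interval from -0.39 to 0.43, and its sign was the other under that scaling to 1 total (-0.079).

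**Figure D2:**
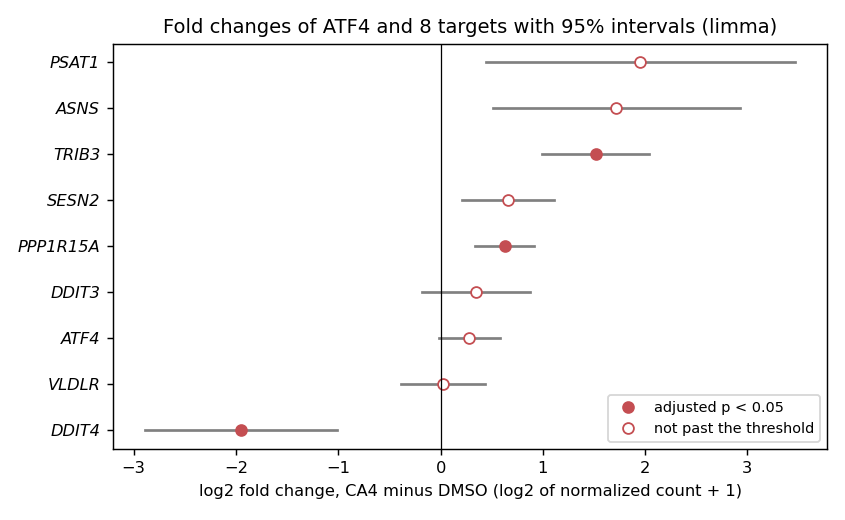
Log2 fold changes (CA4 minus DMSO, horizontal axis) of ATF4 and 8 targets with 95% intervals from limma, n = 3 libraries per group; filled points passed an adjusted p of 0.05, and CHAC1 is left out because of its listed 0. DDIT4 lies at -1.95, and the intervals of ASNS and PSAT1 are the widest on the side above 0.

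Levels can be set against each other roughly once divided by exon length. The length used covers all annotated exons of a gene and can exceed that of the transcripts present. The order below is therefore approximate. In DMSO the mean number of normalized counts per kilobase of exon was 1628 for ATF4, 967 for DDIT4, 498 for PSAT1, 457 for PPP1R15A, 156 for ASNS, 105 for VLDLR, 83.5 for DDIT3, 51.7 for SESN2 and 34.4 for TRIB3. The libraries of neighbours in this order overlapped, except between PPP1R15A and ASNS, DDIT3 and SESN2, and SESN2 and TRIB3. In CA4 the order was ATF4 at 1981, PSAT1 at 1741, PPP1R15A at 706, ASNS at 504, DDIT4 at 247, VLDLR at 106, DDIT3 at 104, TRIB3 at 99.7 and SESN2 at 81.7. There only PSAT1 and PPP1R15A, and DDIT4 and VLDLR, were neighbours without overlap. TRIB3, the lowest of these 9 genes in DMSO, overlapped with DDIT3 and SESN2 in CA4.

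Other targets of the pathway came from 5 lists with 54 genes, of which 52 were tested. Of these, 15 were called higher and 0 lower in limma, against 2.97% and 1.97% of all tested genes, and the median log2 difference was 0.58. In limma at an unadjusted p under 0.05 there were 37 higher and 2 lower, where 11.9% and 11% of all tested genes were. The count model of edgeR called 14 higher and 0 lower, against 2.8% and 1.82% of all genes, and DESeq2 called 35 and 1, against 6.92% and 5.39%. With no variance trend in limma the call of GADD45A alone held. Of the 15 calls, that of GADD45A also held in all 6 fits without 1 library and each of the others in 1 to 3 of the 6; the number called was 1 or 2 without DMSO replicate 2, DMSO replicate 3, CA4 replicate 1 or CA4 replicate 3. The list of amino acid transporters had the highest median, 1.14, with 6 of 8 log2 differences positive and 2 negative, and 4 called higher and 0 lower in limma. At an unadjusted p under 0.05 there were 6 higher and 1 lower transporter, edgeR called 4 higher, and DESeq2 called 6 higher. SLC7A5, the large neutral amino acid transporter, averaged 11137 ± 2986 (SD, n = 3) normalized counts under DMSO against 31681 ± 7587 (SD, n = 3) under CA4, a log2 difference of 1.52 (limma adjusted p = 0.0187, SE 0.24). SLC7A1, which carries cationic amino acids, rose by log2 1.40 (limma adjusted p = 0.0172). The neutral amino acid carriers SLC1A5 and SLC1A4 rose by 1.26 and 1.08 on that scale (adjusted p of 0.0329 and 0.0177 in limma). SLC38A2, another neutral amino acid carrier, picked after its values were seen, had all CA4 libraries below all DMSO libraries, with a log2 difference of -0.40 (limma adjusted p = 0.127, SE 0.13).

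Of all tested genes 48.9% had higher means of log2 values in CA4. All 13 genes of the list of aminoacyl-tRNA synthetases and the tRNA export factor XPOT did so, under each scaling tried. Their median log2 difference was 0.55. Of these, 4 passed the test, GARS1 with a log2 difference of 0.88, XPOT with 0.76, YARS1 with 0.67 and TARS1 with 0.43 (limma adjusted p = 0.0236, 0.0347, 0.0152 and 0.0487). At an unadjusted p under 0.05 all 13 were higher, while edgeR called 3 and DESeq2 12. The call of TARS1 was lost under quantile normalization and scaling to 1 total (adjusted p of 0.0635 and 0.095), and narrowly with a pseudocount of 0.1, with no filter and in edgeR (adjusted p of 0.0503, 0.06 and 0.0527). YARS1 was the tightest of them, with 2253, 2313 and 2281 normalized counts in DMSO against 3235, 3685 and 4015 in CA4. The core TGATGNAA lay in the windows of 7 of the 11 genes of this list with a window, against the 2.84% of tested genes given above. Stretches of 30 bases around the match, in capitals, are shown because all but NARS1 carry it on the opposite strand and 5 of the 7 have TTGCATCA.
AARS1, chr16:70289675-70289704, - strand: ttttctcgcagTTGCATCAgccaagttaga
CARS1, chr11:3057407-3057436, - strand: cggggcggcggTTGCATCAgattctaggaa
GARS1, chr7:30594834-30594863, + strand: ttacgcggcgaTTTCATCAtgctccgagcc
IARS1, chr9:92293692-92293721, - strand: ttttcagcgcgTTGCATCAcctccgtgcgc
MARS1, chr12:57488053-57488082, + strand: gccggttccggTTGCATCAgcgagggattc
NARS1, chr18:57621804-57621833, - strand: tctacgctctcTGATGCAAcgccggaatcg
TARS1, chr5:33440956-33440985, + strand: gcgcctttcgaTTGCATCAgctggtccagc
Of these 7 genes GARS1 and TARS1 passed the expression test. XPOT passed it too, and its window held no match. YARS1, the fourth gene of the list to pass, had no window and was not searched.

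Of 11 amino acid synthesis and one-carbon genes, 9 had positive and 2 negative log2 differences; 2 were called higher and 0 lower in limma, and the median log2 difference was 0.72. At an unadjusted p under 0.05 there were 8 higher and 0 lower, edgeR called 3 higher, and DESeq2 called 8 higher. MTHFD2, the mitochondrial folate enzyme, had 1582, 1140 and 1618 normalized counts in DMSO against 4020, 3019 and 6096 in CA4. It rose by log2 1.55 (limma adjusted p = 0.0201, SE 0.25). ALDH18A1, which starts proline synthesis, rose by 0.45 (limma adjusted p = 0.0215, SE 0.07), a call lost under scaling to 1 total (adjusted p = 0.0524). CTH, which makes cysteine from cystathionine, had a log2 difference of 1.71 and just missed the threshold (limma adjusted p = 0.0505). The enzymes on either side of PSAT1 in serine synthesis, are given outside the naming rule, and their difference from PSAT1 was not tested. PHGDH had a log2 difference of 0.90 (limma adjusted p = 0.375, SE 0.55), and PSPH one of -0.52 (limma adjusted p = 0.236, SE 0.23).

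Replicate 2 was the lowest library in both groups in 3 of the 10 genes, TRIB3, ASNS and PSAT1, in 6 of 11 amino acid synthesis genes, in 5 of 8 transporters and in 8 of 13 genes of the synthetase list, and in 1 of 8 partner and stress factors and 2 of 12 effectors, against 15.1% of all tested genes. The plot of levels by library shows the first 4 of these groups, without CHAC1, row by row. SLC7A5 had 13595, 7814 and 12003 normalized counts in DMSO against 32364, 23776 and 38903 in CA4, the same order of libraries within each group as ASNS and PSAT1. The mean log2 level of the 9 genes other than CHAC1, each gene centred on its own mean, was -0.19, -0.40 and -0.28 in DMSO against 0.23, 0.07 and 0.56 in CA4. With CHAC1 and its listed 0 it was -0.60, -0.34 and -0.22 against 0.23, 0.20 and 0.72, so DMSO replicate 1 was the highest of its group without that gene and the lowest with it.

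The genes with the most similar profile depended on CHAC1 in the same way. Distances were taken over the 6 libraries, as root mean squares on the log2 scale, from the mean profile to 11680 other genes averaging 50 normalized counts or more. With all 10 genes the nearest were SMCO4, RDH10, AMIGO2, LIMCH1 and GPT2, at 0.066 to 0.095, where the median was 0.472. Without CHAC1, an alternative chosen after seeing the data, they were EIF1, EIF2S2, CBFB, MTHFD1L and SARS1, at 0.023 to 0.064, where the median was 0.375. The sets shared 0 of 5 genes, so the first ranking rests on 1 doubtful value.

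**Figure D3:**
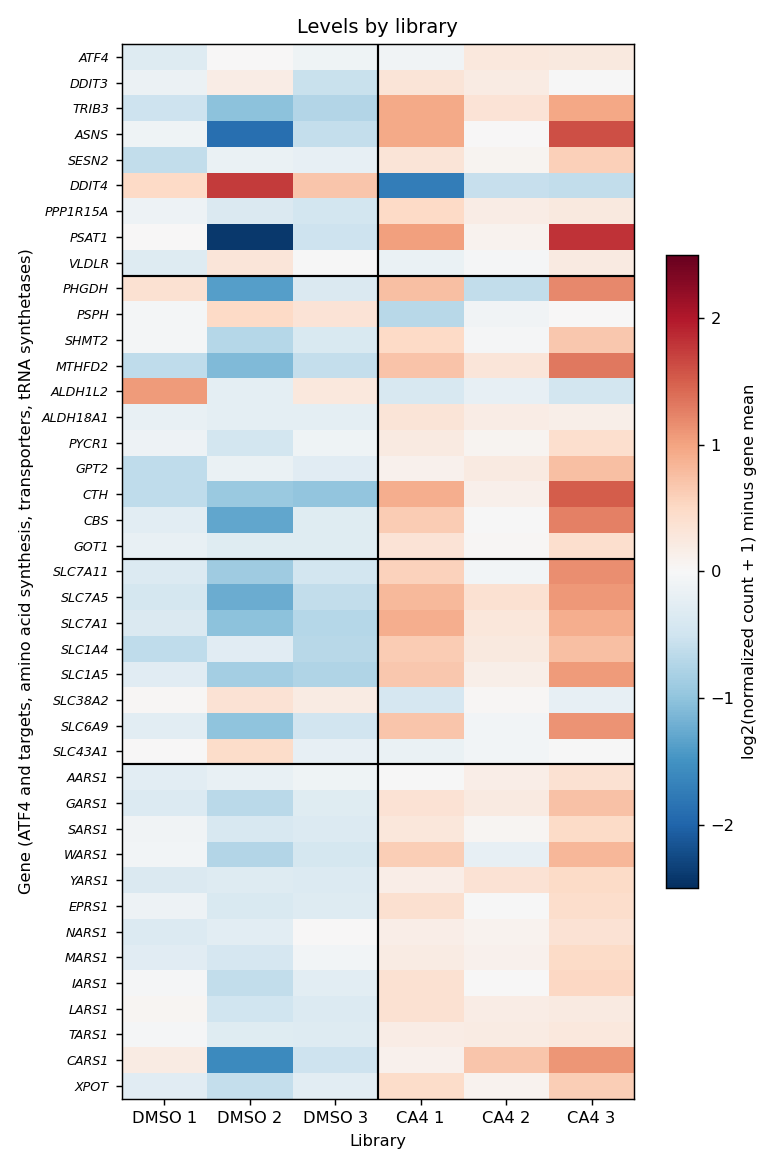
Levels in the 6 libraries (columns) of ATF4 and 8 targets, amino acid synthesis genes, transporters and tRNA synthetases (rows), as log2(normalized count + 1) minus the gene's mean. ASNS and PSAT1 are lowest in DMSO replicate 2 and highest in CA4 replicate 3.

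Of 8 partner and stress factors, 5 had positive and 3 negative log2 differences, with 2 called higher and 0 lower in limma. There were 3 higher and 0 lower at an unadjusted p under 0.05, 1 higher in edgeR and 3 higher in DESeq2. ATF3, a stress-induced repressor of the same family, had 30.9, 12.2 and 26.6 normalized counts in DMSO against 60.9, 92.0 and 79.1 in CA4, and rose by log2 1.77 (limma adjusted p = 0.0471, SE 0.39), a call lost with no filter, with a mean of at least 50 and in edgeR (adjusted p of 0.0634, 0.0516 and 0.052). CEBPG, a partner with which ATF4 binds DNA, rose by 0.86 (limma adjusted p = 0.0192, SE 0.14), and JDP2 had a log2 difference of 0.95 that did not pass (limma adjusted p = 0.116) and was 0.62 without CA4 replicate 3. Of 12 tested effectors, 9 had positive and 3 negative log2 differences, with 3 called higher and 0 lower in limma. There were 7 higher and 1 lower at an unadjusted p under 0.05, 3 higher in edgeR, and 6 higher and 1 lower in DESeq2. KLHL24, picked after its values were seen, had all CA4 libraries below all DMSO libraries, at a log2 difference of -1.37 (limma adjusted p = 0.103, SE 0.41). ADM2, which encodes the peptide intermedin, had 5.8, 6.54 and 6.65 normalized counts in DMSO against 39.6, 22.4 and 88.1 in CA4 (limma adjusted p = 0.039). GADD45A, a growth arrest gene that p53 also induces, rose 2.17-fold (limma adjusted p = 0.0057), and the call held without any 1 of the 6 libraries. TNFRSF10B, the death receptor DR5 and a target of CHOP, rose by 0.50 (limma adjusted p = 0.0436, SE 0.11), a call lost under quantile normalization and scaling to 1 total (adjusted p of 0.0772 and 0.0793) and narrowly with no filter (0.0504).

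Upstream of ATF4, 18 genes for eIF2 kinases, eIF2, its exchange factor eIF2B and their regulators were tested. Their log2 differences were positive in 13 and negative in 5; 1 was called higher and 0 lower in limma, where 4.94% of all tested genes were called, with a median log2 difference of 0.093 that was -0.008 under that scaling to 1 total. EIF2S2, the beta subunit of eIF2, rose by log2 0.62 (limma adjusted p = 0.0411, SE 0.13), a call kept in 1 of the 6 fits without 1 library and lost under quantile normalization and scaling to 1 total (adjusted p of 0.0526 and 0.0532). At an unadjusted p under 0.05 there were 6 higher and 1 lower in the list, edgeR called 1 higher and 0 lower, and DESeq2 called 3 higher and 0 lower. The kinase activator GCN1 and the gamma subunit EIF2S3 had log2 differences of 0.42 and 0.32 (adjusted p of 0.0542 and 0.0783 in limma). The ATF6 and IRE1-XBP1 branches of the unfolded protein response, which act beside the eIF2 branch in the endoplasmic reticulum, had a median log2 difference of 0.47. All 16 of their genes were on the higher side, where 48.9% of all tested genes were, but 0 passed in limma. Under that scaling to 1 total or with quantile normalization it was 15 of 16. At an unadjusted p under 0.05 there were 10 higher, edgeR called 0 and DESeq2 called 7, against 11.9%, 2.8% and 6.92% of all tested genes. XBP1 had a log2 difference of 0.50, EDEM1 of 0.66 and DNAJB9 of 0.74 (limma adjusted p = 0.0585, 0.0556 and 0.0555).

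**Figure D4:**
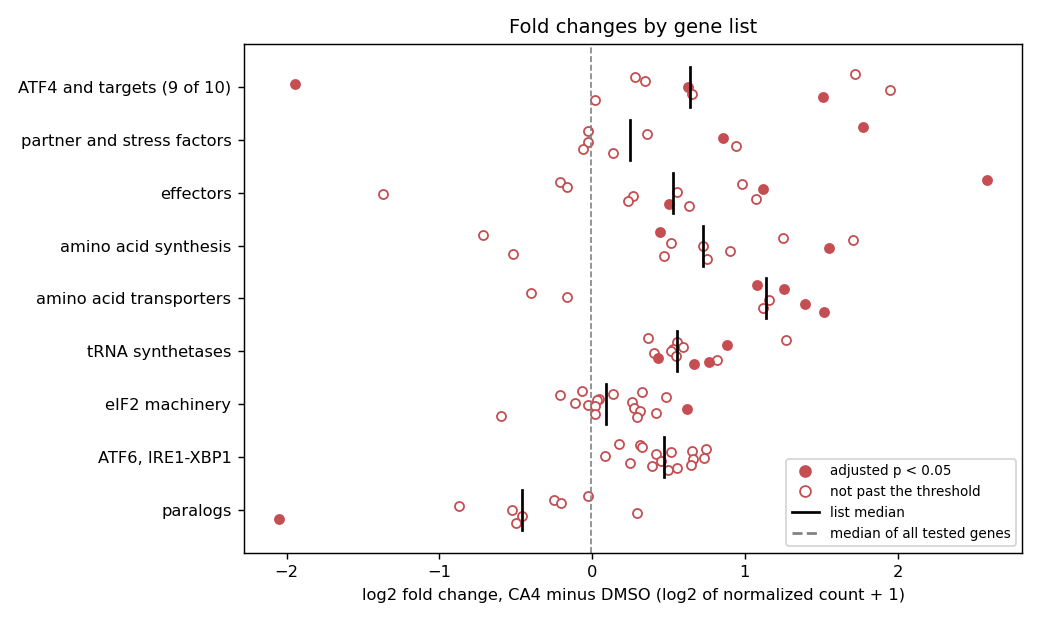
Log2 fold changes (CA4 minus DMSO, horizontal axis) of single genes in 9 lists (rows); filled points passed an adjusted p of 0.05 in limma, black bars are list medians and the dashed line is the median of all tested genes. CHAC1 is not drawn. Transporters have the highest median, 1.14, and paralogs of the 10 genes the lowest, -0.46.

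Of 9 paralogs of the 10 genes, 8 had negative log2 differences, where 7122 of 13928 tested genes had them. In limma 1 paralog was called lower and 0 higher. At an unadjusted p under 0.05 there were 4 lower and 1 higher, edgeR called 1 lower and 0 higher, and DESeq2 called 3 lower and 0 higher. SESN3, a relative of SESN2 that FOXO factors induce, had 48.3, 118 and 174 normalized counts in DMSO against 19.3, 25.8 and 25.6 in CA4, and fell by 2.05 in log2 (limma adjusted p = 0.0493, SE 0.46). The call held without DMSO replicate 1 (adjusted p = 0.00975) and was lost without any 1 of the other 5 libraries, with adjusted p-values up to 0.164; it was also lost under quantile normalization and under 75th percentile scaling (adjusted p of 0.0524 and 0.0504) and with no filter (0.0599). SESN1 and TRIB2 had log2 differences of -0.46 and -0.50 (adjusted p of 0.112 and 0.0919 in limma). Hypoxia and glucocorticoids, which also induce DDIT4, were followed through their own targets. Of 8 tested HIF targets 0 passed in limma, with 2 higher and 1 lower at an unadjusted p under 0.05, 0 in edgeR and 2 higher and 1 lower in DESeq2. Their median log2 difference was -0.069, or -0.126 with quantile normalization and -0.17 under scaling to 1 total. ANKRD37 came nearest, at -0.69 (limma adjusted p = 0.0575), followed by ADM at 0.51 and VEGFA at 0.63 (limma adjusted p = 0.0921 and 0.137). Of 5 tested glucocorticoid receptor targets 1 was higher, the phosphatase gene DUSP1 at 2.83-fold (limma adjusted p = 4.383e-04), and 1 was lower, TSC22D3, which fell by 0.78 (limma adjusted p = 0.0445). The call of DUSP1 held in all 6 fits without 1 library and that of TSC22D3 in 1. With quantile normalization the adjusted p of TSC22D3 was 0.0543. KLF9 had a log2 difference of 0.15 (limma adjusted p = 0.577), which ranged from 0.04 to 0.27 in those fits and was lowest without CA4 replicate 2.

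Libraries held 19524936 to 22538004 reads, and 1 read was worth 0.935 to 1.12 normalized counts, so a value of 0 allows up to 3 reads, which covers counting error only. The line's labels were checked against markers. The epithelial and mesenchymal markers KRT8, KRT18, VIM and CDH2 summed to 133600 to 160400 normalized counts per library, while the pigment epithelium markers RLBP1 and TYR were at most 5.7 and 2.9, and RPE65 was between 13.5 and 40.8. The pigment epithelium transcription factors MITF and OTX2 were present, at 322 to 1085 and 226 to 630 normalized counts. OTX2 fell by 1.11 in log2 (limma adjusted p = 0.0158, SE 0.16), with adjusted p-values of 0.0589 to 0.0792 without DMSO replicate 2, DMSO replicate 3, CA4 replicate 1 or CA4 replicate 3, while MITF and RPE65 had log2 differences of -0.98 and -0.69 (adjusted p of 0.1 and 0.347 in limma). That of RPE65 was -0.38 without DMSO replicate 3. Of the 6 pigment epithelium markers tested, 2 had positive and 4 negative log2 differences, with 0 called higher and 1 lower in limma. PMEL and SERPINF1, picked after their values were seen, were at 0.30 and 0.15. CDH2 rose by log2 0.31 (limma adjusted p = 0.0452, a call kept in 1 of the 6 fits without 1 library and lost at 0.21 under quantile normalization and under scaling to 1 total, and with no filter and in edgeR), and KRT18 and KRT8 had log2 differences of 0.46 and 0.09 (adjusted p of 0.0849 and 0.526 in limma). That of KRT8 was 0.04 without CA4 replicate 3 and -0.012 under scaling to 1 total. Among 6 markers of other cell types CD3E was at 0 throughout, and the summed level was 447 to 683 in DMSO and 595 to 1507 in CA4, most of it from the endothelial genes PECAM1 and CDH5 (log2 differences of 0.74 and 0.64, limma adjusted p = 0.215 and 0.375). Without CA4 replicate 3 those differences were 0.35 and 0.30, and over the 6 fits without 1 library they reached 1.03 and 0.96. The sum was highest in CA4 replicate 3, the library in which ASNS and PSAT1 were also highest. The 8 proliferation genes summed to 6475 to 13470 in DMSO and 3994 to 10390 in CA4, with replicate 1 the highest of each group. MKI67, picked after its values were seen, had 4849, 2045 and 2246 in DMSO against 4233, 2388 and 1191 in CA4. Transcripts of cycling cells were thus present in every library, and how far the cells were quiescent was not tested. All 8 proliferation genes had negative log2 differences (median -0.33), where 7122 of 13928 tested genes had them. In limma 0 of the 8 were called, with 1 lower at an unadjusted p under 0.05, 0 called in edgeR and 1 lower in DESeq2. Those with the smallest adjusted p were MCM2, PCNA and TOP2A (log2 differences of -0.69, -0.37 and -0.57, limma adjusted p = 0.112, 0.318 and 0.487). The difference of PCNA was -0.16 without DMSO replicate 1, and that of TOP2A ranged from -0.99 without CA4 replicate 1 to -0.15 without CA4 replicate 3. The part of these differences in the values of the 10 genes was not tested.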

How the data were processed

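PolyA RNA was sequenced from 3 CA4 and 3 DMSO libraries, grouped by title. The authors deposited a signal, normalized counts, in which each gene's reads were divided by 1 scaling factor of its library, per the file headers and values. The submitters' processing notes name Trim Galore 0.6.6, FastQC 0.12.1, Salmon 1.8.0, STAR 2.7.9a, DESeq2 1.44.0 and the build GRCh38, with no role for each; the annotation release and the use of strand are not given in the sources used here. All values (100%) were whole multiples of 1 read's value (tolerance 0.01), so reads were recovered for edgeR 4.0.16 and DESeq2 1.42.0, both run as alternatives.

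Genes averaging 10 or more were tested as log2(normalized count + 1), a scale that understates changes of low genes, in limma 3.58.1 (R 4.3.3) with a variance trend and treatment alone; errors are moderated standard errors. The scripts were tested on simulated data. The 10 genes, the lists and the motif were chosen with earlier results of these data known. Named are the 10 genes and, of each list, those past the threshold and up to 3 with the smallest adjusted p; exceptions are marked. The 5 lists of other targets are partner and stress factors, effectors, amino acid synthesis, transporters and synthetases. The alternatives were 2 pseudocounts, 2 filters, 3 scalings, 2 variance priors, a replicate block, 6 fits without 1 library, both count models and 2 other motifs. Coordinates and overlaps come from GENCODE 29 and promoters from RefSeq, both on GRCh38.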

Additional observations from a re-analysis of the deposited data

How the results depend on the processing

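Counts were low for CHAC1 and ADM2, whose values rest on few reads. Against 413 higher and 275 lower genes, the counts were 51 and 52 with no variance trend, 907 and 706 in DESeq2, and 279 and 523 with every library set to 1 total (same total), which moved the median of all genes by -0.101. Against 2 higher and 1 lower of the 10 genes, there were 0 and 0 with no variance trend and 1 and 1 with the same total, and edgeR gave 2 and 1. For the other targets, 15 higher and 0 lower became 1 and 0 with no variance trend and 35 and 1 in DESeq2. With no variance trend the log2 differences of TRIB3 (1.51), DDIT4 (-1.95) and PPP1R15A (0.63) no longer passed. Nor did EIF2S2, SESN3, OTX2, CDH2 and TSC22D3, while DUSP1 did. With the same total PPP1R15A (0.52) did not pass, and the signs of VLDLR (-0.079) and KRT8 (-0.012) turned. In DESeq2 SESN2 passed (0.66). The motif TGATGNAAT was found in 0 of the 10 windows and TGACGTCA in 1, against 2 for TGATGNAA. The other pseudocounts and filters, quantile normalization, 75th percentile scaling, the robust prior and edgeR changed the call of none of the 10 genes, except that CHAC1 was not tested with a mean of at least 50. The cause of the changes was not tested.

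Leaving out 1 library gave 51 to 604 higher and 33 to 386 lower genes, 0 to 2 higher and 0 to 1 lower of the 10 genes, and 1 to 22 higher and 0 to 1 lower of the other targets, with 1 and 2 higher without DMSO replicate 3 and DMSO replicate 2, 2 without CA4 replicate 1 and 2 without CA4 replicate 3. Such a fit has fewer libraries by construction. The log2 differences ranged from 1.38 to 1.72 for TRIB3, -2.19 to -1.57 for DDIT4, 0.53 to 0.72 for PPP1R15A and -0.14 to 0.18 for VLDLR.

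With the replicate number as a block there were 1260 higher and 1137 lower genes, 6 higher and 1 lower of the 10 genes, and 37 higher and 3 lower of the other targets. ATF4 (0.28, adjusted p = 0.0217), ASNS (1.72, adjusted p = 0.00399), SESN2 (0.65, adjusted p = 0.0441) and PSAT1 (1.95, adjusted p = 0.0067) passed in limma with the block. The labels give no meaning to the number, and deviations from the group means correlated at 0.202, 0.159 and 0.0589 between same-numbered libraries, so the libraries were not treated as paired; 5 of the 6 correlated best with their own number.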
